A study of Mus musculus with 16 samples.

Results

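The machinery that opens replication origins and copies DNA at forks was followed through 44 genes, picked by name, and all 44 were found by symbol among the 47069 genes of the count table. Of these genes, 15 act in origin licensing, 8 in helicase activation and 20 at the fork, and Mcm8, a helicase subunit best known from recombination repair, was kept apart. The RNA came from macrophages grown out of bone marrow (BMMs). The donors were mice of the C57BL/6 strain aged 8 to 10 weeks, for which no genetic change is labelled, and the cells were kept in L929-conditioned medium and harvested on day 7. Every culture was primed overnight with IFNγ at 10 ng/mL and then activated for 1 hr with Salmonella LPS at 100 ng/mL and immune complexes of ovalbumin with IgG (LPS/ICs). The GSI group received 25 µM DAPT, a gamma-secretase inhibitor that keeps Notch receptors from releasing their intracellular part, and the control group received the vehicle DMSO at 0.01%. By the study's methods, inhibitor or vehicle was added the night before activation. Some of its figure legends, for other assays, name a shorter pre-treatment, and its sequencing methods do not restate the time of addition. The comparison therefore shows replication transcripts with and without the inhibitor in macrophages that share priming and activation, and unprimed or unactivated cells were not analysed here. Each group had 2 replicates. Nothing in the labels says that these came from separate mice or cultures, so the p-values measure only the spread between these samples, which may be technical.

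Origins are licensed when the origin recognition complex, Cdc6 and Cdt1 load rings of the MCM2-7 helicase onto DNA. In S phase the kinase Cdc7 with Dbf4, together with Cdc45 and the GINS complex, turns these rings into running helicases, after which primase, 3 replicative polymerases, the sliding clamp and its loader build the new strands. Many of the genes are known targets of the E2F transcription factors in dividing cells. Macrophages grown from bone marrow divide in response to the growth factor that L929 cells secrete, while LPS and IFNγ are known to hold back their division.

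Across the 4 libraries, DMSO replicates 1 and 2 and GSI replicates 1 and 2, the totals ran from 42694655 to 56932059 counts, so that 3 counts, taken as the floor, equalled 0.0527 to 0.0703 CPM, the count scaled to a common library total. This floor covers counting error only, since the sources used here describe no molecular identifiers that would tell PCR copies apart, and all levels below use TMM-adjusted totals. Of 13211 genes that passed the filter on low counts, 21.9% were lower with GSI and 19% were higher at a false discovery rate (FDR, the Benjamini-Hochberg adjusted p of edgeR's quasi-likelihood test) under 0.05, and their median log2 fold change was 0.01. Of 8 macrophage markers all 8 were detected, with summed levels of 12278 and 12485 CPM in the DMSO and 9489 and 10414 CPM in the GSI libraries. Of 34 markers of granulocytes, lymphocytes, erythroid, dendritic and stromal cells, 25 had at most 3 counts in every library and 1, the dendritic cell marker Xcr1, exceeded 1 CPM. Xcr1 was lower with GSI, at 5.02 and 4.64 CPM in the DMSO and 3.77 and 3.44 CPM in the GSI libraries (log2 fold change -0.42, FDR 0.0175). Of the macrophage markers 6 were lower and 1 was higher. All 10 genes of a list of mitotic markers, of which Mki67 and Top2a were the most abundant, were lower with GSI (median log2 fold change -1.07), and the list summed to 461.1 and 452.7 CPM in the DMSO and 259.4 and 250.1 CPM in the GSI libraries. In bulk RNA, fewer dividing cells and less replication RNA per cell cannot be told apart, and the part of these markers in the results below was not tested.

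The genes that fell in the GSI-treated macrophages spanned licensing, helicase activation and the fork. At an FDR under 0.05, 22 of 44 were lower with GSI (21.9% of all tested genes), 1 was higher, Rfc2 (19% of all tested genes), and 21 did not pass. The median log2 fold change of the 44 genes was -0.26, with single genes between -1.0 for Mcm7 and 0.74 for Rfc2, against 0.01 over all tested genes. None of the 44 passed an FDR under 0.05 together with an absolute log2 fold change above 1.5, which 2.91% of tested genes did in edgeR, and DESeq2 also gave 0 of 44. In 30 genes both GSI libraries lay below both DMSO libraries, as in 34.8% of all tested genes. In 5 genes, Gins3, Pola2, Pold3, Rfc2 and Rfc3, both lay above, as in 35.8%, and in 9 the groups overlapped. By role, 8 of 15 licensing genes, 5 of 8 helicase activation genes and 9 of 20 fork genes were lower, with median log2 fold changes of -0.43, -0.39 and -0.19.

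**Figure D1:**
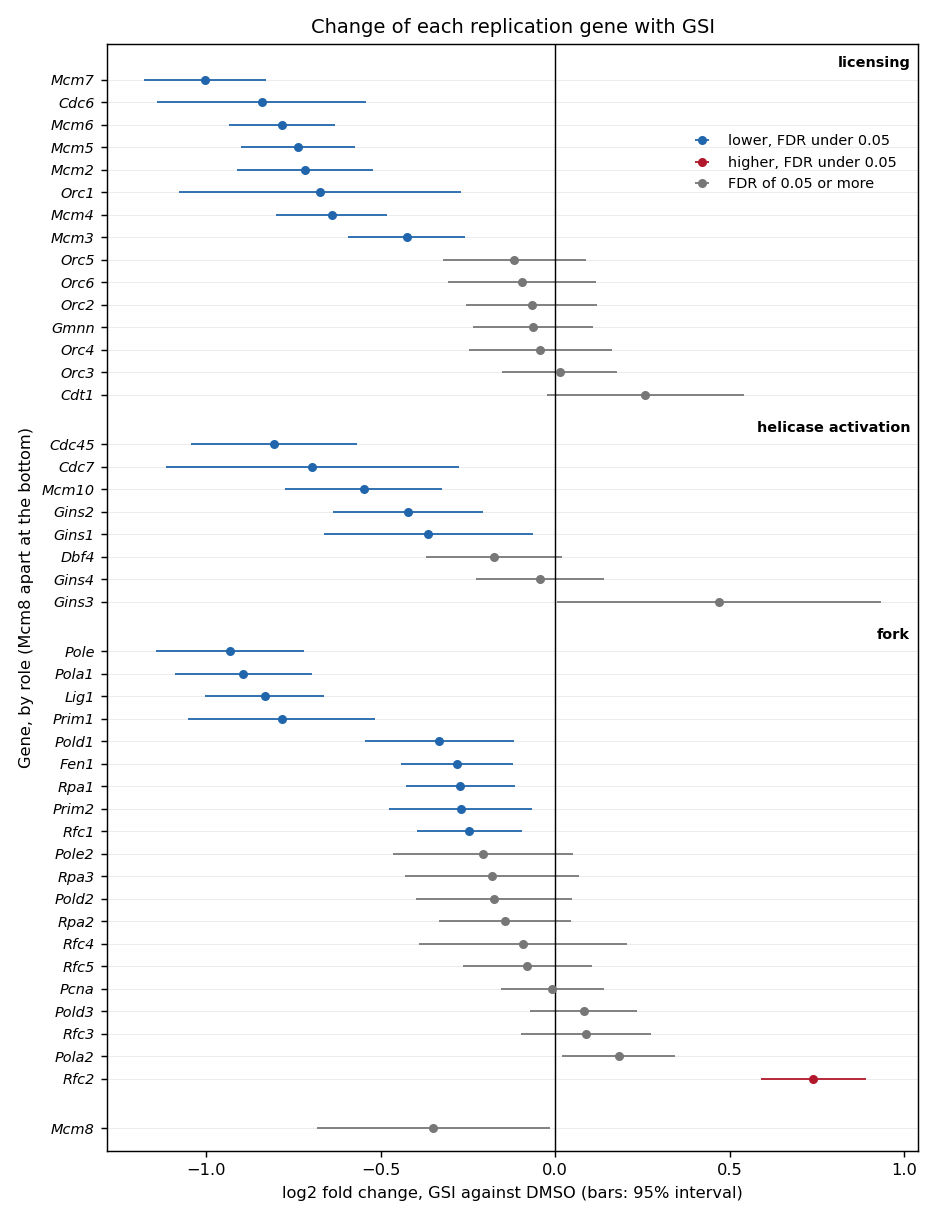
The log2 fold change of each replication gene with GSI against DMSO (points) is plotted with its 95% interval (bars), grouped by role and coloured by call at an FDR of 0.05. The 22 genes called lower lie between -1.0 and -0.25, and Rfc2, the gene called higher, lies at 0.74.

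The replicative helicase itself was lower in every subunit. All 6 MCM2-7 genes fell, with a median log2 fold change of -0.73, and their summed level was 241.6 and 250.1 CPM in the DMSO libraries and 146.4 and 155.9 CPM in the GSI libraries. Mcm7 (chr5:138164583-138172422 on GRCm38, minus strand), a core subunit of the ring, measured 28.5 and 28.3 CPM in DMSO replicates 1 and 2 and 13.9 and 14.3 CPM in GSI replicates 1 and 2. The replicates nearly coincided and the groups were far apart, so that the GSI level was 49.9% of the DMSO level (log2 fold change -1.0 ± 0.08 SE, FDR 8.02e-09). Mcm6, the most abundant of the 6, stood at 77.7 and 79.1 CPM with DMSO and 43.8 and 47.3 CPM with GSI (-0.78 ± 0.07, FDR 4.25e-08). Mcm5 went from 35.4 and 36.6 CPM to 21.2 and 22.0 CPM (-0.74 ± 0.08, FDR 2.39e-07). In both genes the GSI libraries lay together, well under the DMSO libraries. Mcm2 fell by 0.72 (SE 0.09, FDR 3.63e-06) and Mcm4 by 0.64 (SE 0.08, FDR 1.09e-06) on the log2 scale. Mcm3 fell least of the subunits, to 74.4% of its DMSO level (log2 fold change -0.43 ± 0.08, FDR 0.000237). No subunit's groups overlapped, with both GSI libraries the lower ones, as in 34.8% of all tested genes.

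Per kb of exon, the 6 subunits differed in level. In the DMSO libraries Mcm6 stood highest at 16.8 CPM per kb, Mcm4 at 11.6, Mcm3 at 11.2, Mcm5 at 9.01, Mcm7 at 6.41 and Mcm2 lowest at 2.77 CPM per kb. With GSI Mcm6 again stood highest and Mcm2 lowest, at 9.76 and 1.69 CPM per kb. The levels depend on the length used: over the longest transcript in place of all exons, Mcm6 at 18.0 and Mcm2 at 5.52 CPM per kb were still highest and lowest with DMSO, whereas Mcm3 at 12.3 stood above Mcm4 at 11.6.

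**Figure D2:**
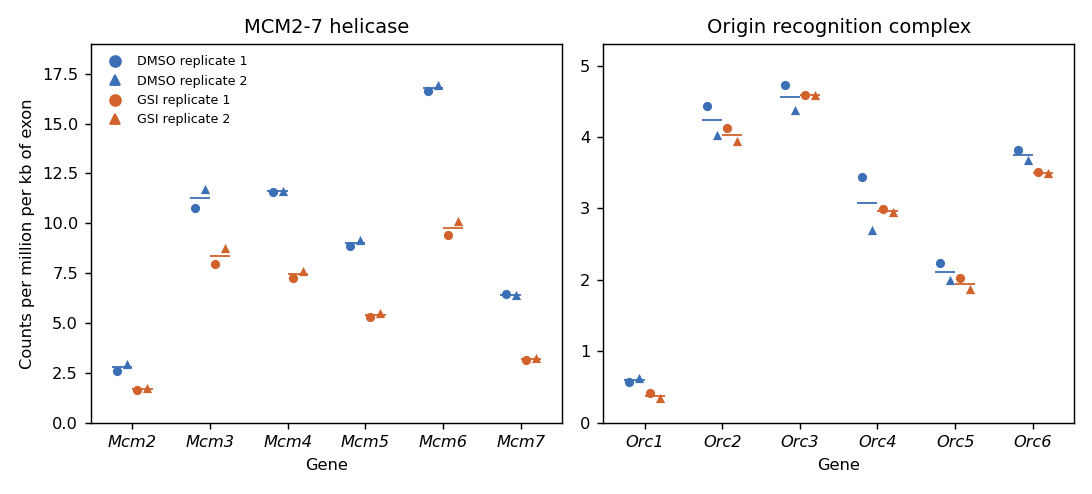
The level in CPM per kb of exon is plotted for the 6 MCM2-7 genes (left) and the 6 genes of the origin recognition complex (right), with 1 point per library and a line at each group mean. Every MCM gene separates the DMSO from the GSI libraries, from 16.8 to 9.76 in Mcm6 and from 6.41 to 3.19 in Mcm7, whereas Orc2 to Orc5 overlap.

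The origin recognition complex, which marks where the rings are loaded, had 1 of 6 subunits lower (21.9% of all tested genes). This was Orc1, the subunit whose protein level is known to follow the cell cycle, at 2.0 and 2.20 CPM in the DMSO and 1.43 and 1.22 CPM in the GSI libraries (log2 fold change -0.67 ± 0.19, FDR 0.00874). Orc1 rested on 60 to 125 counts per library, and without DMSO replicate 2 or without GSI replicate 2 its FDR was 0.0772 or 0.0553 and its log2 fold change -0.60 or -0.56. DESeq2 did not call Orc1 either (FDR 0.0765). The 5 other subunits did not pass the test, with a median log2 fold change of -0.07. Orc2 measured 17.1 and 15.6 CPM with DMSO and 15.9 and 15.2 CPM with GSI (-0.07 ± 0.09, FDR 0.582), and its 95% interval ran from -0.26 to 0.12. Orc3 measured 28.8 and 26.6 CPM with DMSO and 28.0 and 27.9 CPM with GSI (0.01, interval -0.15 to 0.18). Orc4 gave 25.7 and 20.1 CPM with DMSO and 22.3 and 22.0 CPM with GSI (-0.04, interval -0.25 to 0.16). In these 3 subunits both GSI libraries lay within or beside the DMSO range, and the spread between the DMSO replicates exceeded the difference of the groups. Orc5 stood at 13.8 and 12.3 CPM with DMSO and 12.5 and 11.5 CPM with GSI (-0.12, interval -0.32 to 0.09). Orc6 stood at 9.41 and 9.08 CPM with DMSO and 8.67 and 8.63 CPM with GSI (-0.10, interval -0.31 to 0.12), and in Orc6 the groups did not overlap. Per kb of exon, Orc1 was the least abundant subunit in both groups (0.604 CPM per kb with DMSO, 0.380 with GSI) and Orc3 the most abundant (4.56 and 4.59). Over the longest transcript, Orc1 and Orc3 were again lowest and highest with DMSO, with Orc3 at 8.98 CPM per kb.

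Of the factors that load and limit the rings, 1 of 3 was lower (21.9% of all tested genes). Cdc6, the ATPase that brings MCM2-7 to the origin recognition complex, measured 5.39 and 4.56 CPM in DMSO replicates 1 and 2 and 2.79 and 2.73 CPM in the GSI replicates. Both GSI libraries lay far below both DMSO libraries, at 55.8% of the DMSO level (log2 fold change -0.84 ± 0.14, FDR 9.01e-05). Cdt1, which carries MCM2-7 to the origin together with Cdc6, measured 25.5 and 40.5 CPM with DMSO and 35.9 and 43.3 CPM with GSI. Its DMSO replicates differed 1.59-fold from each other and the groups overlapped (0.26 ± 0.13, FDR 0.134). The Cdt1 result turned on single libraries: without DMSO replicate 2 its log2 fold change was 0.63 (FDR 2.3e-06), without GSI replicate 1 it was 0.39 (FDR 0.000283), and over the 4 ways of leaving out 1 library it ran from -0.03 to 0.63. With no filter on low counts it also passed, at nearly the same size (0.27, FDR 0.00798). With the replicate number as a block in the model it passed too (0.29, FDR 0.000225). The labels do not say that this number marks a pair. Gmnn encodes geminin, the inhibitor of Cdt1, and measured 25.4 and 23.5 CPM with DMSO and 23.1 and 23.6 CPM with GSI. Its groups overlapped (-0.06 ± 0.08, FDR 0.569).

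Promoters were examined because many of these genes are textbook E2F targets. Of the 44 genes, 36 had a RefSeq promoter window (GRCm38.p6, 250 bases before to 50 bases after a transcription start), which leaves Gins1, Gins2, Gins4, Gmnn, Mcm4, Pole, Prim2 and Rfc2. The windows were searched on both strands for 4 forms of the E2F-type motif, which can overlap each other. These were TTCCCGC as the first form, TTGGCGC as the second, TTCGCGC as the third and TTGCCGC as the last. At least 1 form was found in 24 of 36 replication genes (66.7%), in 2936 of 27025 genes with a window (10.9%) and in 1835 of 9401 tested genes (19.5%). Among all tested genes the share was 20.0% for those lower with GSI and 19.4% for the others. In the replication genes it was 13 of 17 for those lower (76.5%) and 11 of 19 for the others (57.9%), and this difference was not tested. By role the motif was present in 9 of 13 licensing, 2 of 5 helicase activation and 12 of 17 fork genes. Demanding 1 more T in front lowered the share to 44.4% in the replication genes, 4.73% in tested genes and 2.61% in all genes. This longer motif was present in 8 of 13 licensing, 1 of 5 helicase activation and 6 of 17 fork genes.

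Shown are the members of each role that fell most and hold the motif, Mcm7 and Cdc6 for licensing, Cdc7 for helicase activation, and Pola1 and Lig1 for the fork. Each is the first 280 bases of a RefSeq window, 5′ to 3′ on the strand of the gene and ending 30 bases after the start, with the motif in capitals in either orientation. Where a gene has several windows, the one with the most motifs in these 280 bases is shown.
Mcm7: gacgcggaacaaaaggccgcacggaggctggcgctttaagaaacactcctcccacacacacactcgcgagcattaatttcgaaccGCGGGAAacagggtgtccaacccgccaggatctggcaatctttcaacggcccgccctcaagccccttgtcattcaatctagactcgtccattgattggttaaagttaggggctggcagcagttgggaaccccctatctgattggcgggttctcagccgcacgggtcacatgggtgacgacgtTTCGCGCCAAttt
Cdc6: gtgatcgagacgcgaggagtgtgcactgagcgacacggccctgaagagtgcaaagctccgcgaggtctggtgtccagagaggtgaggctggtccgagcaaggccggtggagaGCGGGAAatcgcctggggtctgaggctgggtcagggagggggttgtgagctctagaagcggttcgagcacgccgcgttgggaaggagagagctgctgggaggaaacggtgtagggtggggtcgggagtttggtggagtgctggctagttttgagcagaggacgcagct
Cdc7: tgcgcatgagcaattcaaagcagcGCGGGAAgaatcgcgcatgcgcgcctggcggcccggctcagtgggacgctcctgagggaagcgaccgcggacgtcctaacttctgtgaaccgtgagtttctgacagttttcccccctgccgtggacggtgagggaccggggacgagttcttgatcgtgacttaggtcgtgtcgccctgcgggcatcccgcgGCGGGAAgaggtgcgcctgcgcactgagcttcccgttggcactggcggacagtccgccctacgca
Pola1: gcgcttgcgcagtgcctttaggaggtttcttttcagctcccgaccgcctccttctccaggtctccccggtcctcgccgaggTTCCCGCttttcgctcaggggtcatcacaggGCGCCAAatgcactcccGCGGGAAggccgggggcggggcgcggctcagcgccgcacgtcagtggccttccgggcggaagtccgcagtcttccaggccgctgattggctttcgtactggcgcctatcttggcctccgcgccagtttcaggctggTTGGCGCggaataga
Lig1: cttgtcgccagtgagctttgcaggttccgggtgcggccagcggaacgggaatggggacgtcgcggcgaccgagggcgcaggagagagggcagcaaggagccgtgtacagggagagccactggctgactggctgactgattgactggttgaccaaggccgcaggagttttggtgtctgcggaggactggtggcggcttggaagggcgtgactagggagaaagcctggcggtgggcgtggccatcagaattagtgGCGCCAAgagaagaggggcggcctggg
The Mcm7 stretch (chr5:138171854-138172133, minus strand) holds 3 matches, a pair of which overlap in both orientations near the start. Pola1 (chrX:93632126-93632405, minus strand) holds 4, Cdc7 (chr5:106964311-106964590, plus strand) 2, and Cdc6 (chr11:98907901-98908180, plus strand) and Lig1 (chr7:13279015-13279294, plus strand) 1 each. A further Lig1 window holds 2 matches, but neither lies wholly within its first 280 bases. The Lig1 window furthest upstream (chr7:13276925-13277224) holds 0. Which of a gene's starts these cells use was not tested. A match is a description of these letters, and binding was not measured.

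Of the 8 helicase activation genes 5 were lower (21.9% of all tested genes). At least 1 of the 5 came from each of the firing kinase, GINS and the partners of the ring. The count was 3 of 8 in DESeq2, which did not call Cdc7 (FDR 0.0732) or Gins1 (FDR 0.193), and also 3 of 8 without DMSO replicate 2. Cdc45, which joins the MCM ring to make the active helicase, measured 9.16 and 8.46 CPM in the DMSO libraries and 5.19 and 4.86 CPM in the GSI libraries. The groups were well apart, with GSI at 57.2% of DMSO (log2 fold change -0.81 ± 0.11, FDR 1.03e-05). Mcm10, which helps the helicase start, went from 10.0 and 11.3 CPM to 7.01 and 7.63 CPM (-0.55 ± 0.11, FDR 0.000375). Cdc7, the catalytic subunit of the firing kinase, measured 1.86 and 2.41 CPM with DMSO and 1.43 and 1.24 CPM with GSI (-0.70 ± 0.20, FDR 0.00886). Cdc7 was among the rarest of the 44 transcripts, at 61 to 137 counts per library, and without DMSO replicate 2 its log2 fold change was -0.49 (FDR 0.173). Its activating partner Dbf4, at 17.2 and 15.1 CPM with DMSO and 14.7 and 13.8 CPM with GSI, did not pass the test (-0.18 ± 0.09, FDR 0.144), though its groups did not overlap.

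The 4 GINS subunits form a single complex that joins the MCM ring together with Cdc45. Of the 4, 2 were lower (21.9% of all tested genes). Gins2 measured 9.97 and 9.92 CPM in DMSO and 7.41 and 7.43 CPM in GSI libraries (-0.42 ± 0.10, FDR 0.00258), with each pair of replicates almost equal. Gins1 fell by 0.36 on the log2 scale (SE 0.14, FDR 0.0484), close to the threshold. It did not pass without DMSO replicate 1 (-0.33, FDR 0.174), without DMSO replicate 2 (-0.41, FDR 0.0966) or without GSI replicate 1 (-0.30, FDR 0.185). Gins4 gave 19.2 and 17.9 CPM with DMSO and 18.8 and 17.2 CPM with GSI, overlapping groups with a log2 fold change of -0.04 (interval -0.23 to 0.14). Gins3, the rarest of the 44 transcripts in the DMSO libraries at 47 and 78 counts, measured 1.09 and 1.37 CPM with DMSO and 1.43 and 2.02 CPM with GSI. Both GSI libraries lay above both DMSO libraries, by little in replicate 1, and the difference did not pass the test (0.47 ± 0.22, FDR 0.0978). With the replicate number as a block the difference passed (0.49, FDR 0.0407). It turned on single libraries: without GSI replicate 1 it was 0.70 (FDR 0.0154), and without GSI replicate 2 it was 0.20 (FDR 0.617).

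**Figure D3:**
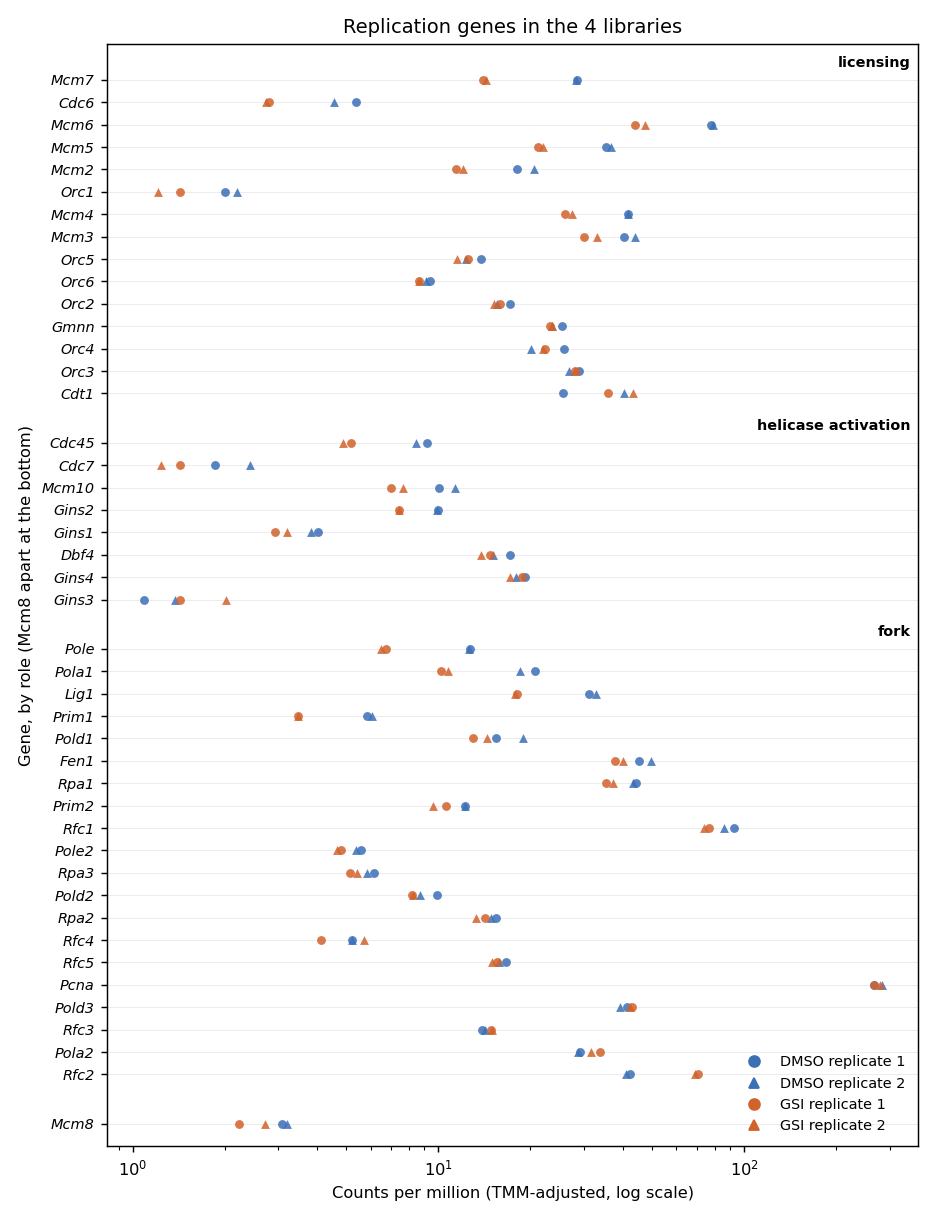
The TMM-adjusted level in CPM of each of the 44 genes is plotted on a log axis, with 1 point per library, grouped by role and ordered by fold change. Pcna is the highest at 265.7 to 281.2 CPM and Gins3 and Cdc7 are among the lowest, at 1.09 to 2.41 CPM.

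At the fork, the catalytic subunits of the 3 polymerases and of primase, Pola1, Pold1, Pole and Prim1, were all lower (4 of 4, median log2 fold change -0.84). Of their partners Pola2, Prim2, Pold2, Pold3 and Pole2, 1 of 5 was lower (21.9% of all tested genes), with a median of -0.18. This split was drawn after the values were seen and has no test of its own. Pole, the leading-strand polymerase, measured 12.7 and 12.6 CPM with DMSO and 6.76 and 6.48 CPM with GSI. It stood at 52.4% of the DMSO level, with replicates close together (log2 fold change -0.93 ± 0.10, FDR 3.61e-07). Pola1, which extends the first primers, measured 20.6 and 18.4 CPM with DMSO and 10.2 and 10.8 CPM with GSI (-0.89 ± 0.09, FDR 2.24e-07). Prim1, which lays down the RNA primers, measured 5.86 and 6.08 CPM with DMSO and 3.48 and 3.46 CPM with GSI (-0.78 ± 0.13, FDR 5.60e-05). In both genes the GSI libraries lay far below the DMSO libraries. Pold1, the catalytic subunit of the lagging-strand polymerase, fell less, to 79.4% of the DMSO level (-0.33 ± 0.10, FDR 0.0137), and did not pass without DMSO replicate 2 (-0.17, FDR 0.299) or without GSI replicate 1 (-0.26, FDR 0.0558).

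Of the partner subunits, the large primase subunit Prim2 fell to 82.9% of its DMSO level (-0.27 ± 0.10, FDR 0.0328). This call was lost without DMSO replicate 1 (-0.27, FDR 0.0955), DMSO replicate 2 (-0.27, FDR 0.106) or GSI replicate 2 (-0.20, FDR 0.195), and in DESeq2 (FDR 0.104). Pola2, the regulatory subunit of polymerase alpha, measured 29.0 and 28.5 CPM with DMSO and 33.7 and 31.5 CPM with GSI. Both GSI libraries were the higher ones, by a log2 fold change that missed the threshold (0.18 ± 0.08, FDR 0.0685). With the replicate number as a block Pola2 passed (0.18, FDR 0.0304). Pold2, a scaffold subunit of polymerase delta, measured 9.92 and 8.72 CPM with DMSO and 8.21 and 8.24 CPM with GSI (-0.18 ± 0.11, FDR 0.199). Pold3, which links polymerase delta to the clamp, measured 41.3 and 39.3 CPM with DMSO and 43.0 and 42.3 CPM with GSI (0.08 ± 0.07, FDR 0.406). In these 2 genes the groups stood apart in opposite directions by margins that did not pass the test. Pole2, the second subunit of polymerase epsilon, measured 5.60 and 5.36 CPM with DMSO and 4.82 and 4.66 CPM with GSI (-0.21 ± 0.12, FDR 0.190), again without overlap of the groups.

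**Figure D4:**
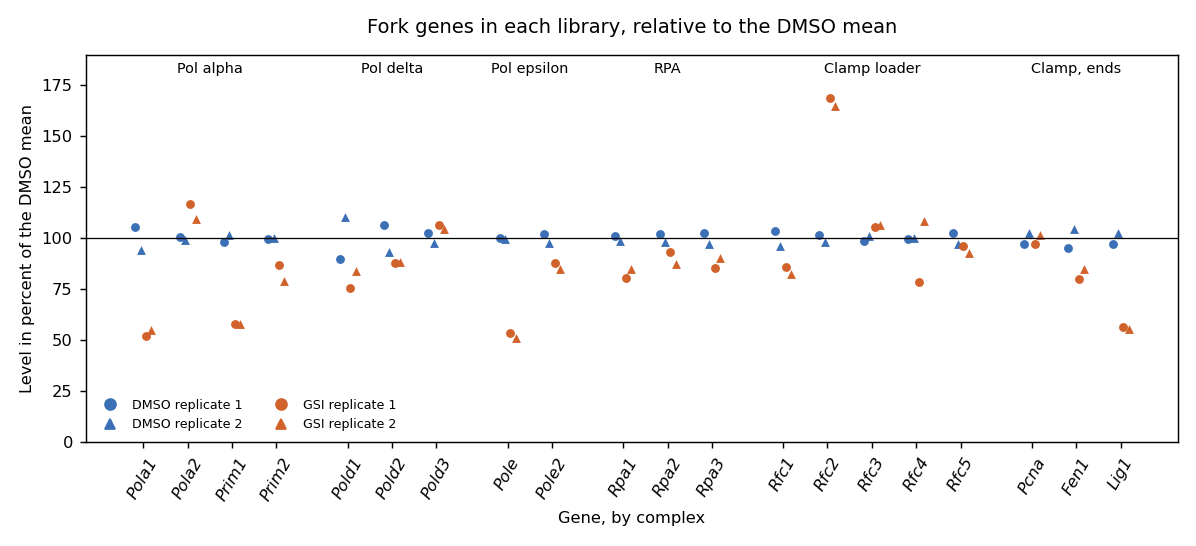
The level of each fork gene in each library is plotted as a percentage of the mean of the DMSO libraries, grouped by complex, with 100% as the line. The GSI libraries of Pole and Pola1 lie lowest, at a fitted 52.4% and 53.8%, Pcna lies at the line and Rfc2 lies highest at 167%.

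The sliding clamp did not pass the test, while the enzymes that finish lagging-strand fragments were lower. Pcna, which encodes the clamp, was the most abundant of the 44 transcripts, at 266 and 281 CPM in the DMSO and 266 and 279 CPM in the GSI libraries. The replicates interleaved, and the 95% interval of the log2 fold change ran from -0.16 to 0.14 (-0.01 ± 0.07, FDR 0.938). Per kb of exon Pcna stood at 114 CPM per kb with DMSO, against 19.6 CPM per kb for Fen1 and 16.8 for Mcm6. Over the longest transcript these DMSO levels were 180.3, 20.0 and 18.0 CPM per kb. Its annotated pseudogene Pcna-ps2 held 99 to 133 counts per library, where Pcna held 11451 to 15956. The flap endonuclease Fen1, which trims the ends of lagging-strand fragments, fell to 82.3% (-0.28 ± 0.08, FDR 0.00611), and without DMSO replicate 2 it did not pass (-0.22, FDR 0.0919). The ligase Lig1, which seals these fragments, measured 31.0 and 32.8 CPM with DMSO and 18.0 and 17.8 CPM with GSI. Both GSI libraries lay near 56.1% of the DMSO level (log2 fold change -0.83 ± 0.08, FDR 7.73e-08).

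The single-strand binding protein RPA had 1 of 3 subunits lower (21.9% of all tested genes). This was its large subunit Rpa1, which fell by 0.27 on the log2 scale (SE 0.07, FDR 0.00625). Rpa2 measured 15.5 and 14.9 CPM with DMSO and 14.2 and 13.3 CPM with GSI (-0.14 ± 0.09, FDR 0.219). Rpa3, the smallest subunit, measured 6.16 and 5.83 CPM with DMSO and 5.13 and 5.43 CPM with GSI (-0.18 ± 0.12, FDR 0.241). In all 3 subunits both GSI libraries lay below both DMSO libraries, as in 34.8% of all tested genes. The intervals of Rpa2 and Rpa3 spanned 0.

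The clamp loader, a ring of 5 subunits that opens Pcna around DNA, had 1 subunit lower (21.9% of all tested genes) and 1 higher (19%). Its large subunit Rfc1 fell to 84.3% of the DMSO level (-0.25 ± 0.07, FDR 0.00978), a call lost without DMSO replicate 1 (-0.19, FDR 0.129). Rfc2 (chr5:134581366-134601805, plus strand), a small subunit, measured 42.4 and 41.0 CPM in DMSO replicates 1 and 2 and 70.5 and 68.8 CPM in GSI replicates 1 and 2. Both GSI libraries stood far above both DMSO libraries, at 167% of the DMSO level (log2 fold change 0.74 ± 0.07, FDR 7.80e-08). Rfc3 measured 13.9 and 14.2 CPM with DMSO and 14.9 and 15.0 CPM with GSI (0.09 ± 0.09, FDR 0.463). Rfc4 measured 5.23 and 5.23 CPM with DMSO and 4.12 and 5.69 CPM with GSI (-0.09 ± 0.14, FDR 0.643). Rfc5 measured 16.6 and 15.8 CPM with DMSO and 15.6 and 15.0 CPM with GSI (-0.08 ± 0.09, FDR 0.496). None of these 3 subunits passed, and Rfc4 had its lowest and its highest level in the GSI libraries.

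Reads of overlapping genes may be part of several of these values, which was not tested. In GENCODE M21, 13 of the 44 genes share exon bases with a gene on the opposite strand, and whether the counting used strand is not given in the sources used here. Rfc2 shares 952 of 6303 exon bases with Lat2, an adaptor gene of myeloid cells that was itself higher with GSI, at 265 and 269 CPM in the DMSO and 382 and 378 CPM in the GSI libraries (log2 fold change 0.51, FDR 5.80e-06). Reads of Rfc2 and Lat2 in this stretch cannot be told apart without the strand setting. Fen1 shares 2039 of 2422 bases with Tmem258, whose log2 fold change was 0.15 (FDR 0.152), and with Gm10143, which stood at no more than 0.604 CPM in any library. Gins2 shares 2758 of 4097 bases with Gse1, which was lower with GSI (-0.31, FDR 0.00396). Mcm7 shares 385 of 4426 bases with Ap4m1 and Cops6, neither of which passed (-0.08 and 0.09). Of the 23 called replication genes 15 share no such bases, and for the others, Rfc2, Fen1, Gins2, Mcm7, Orc1, Cdc45, Pole and Lig1, the part of opposite-strand reads was not tested.

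Mcm8, whose protein works with Mcm9 in recombination repair and is no part of the replicative ring, measured 3.09 and 3.21 CPM with DMSO and 2.23 and 2.71 CPM with GSI. The groups did not overlap, and the difference did not pass (-0.35 ± 0.16, FDR 0.0880). Over the 4 ways of leaving out 1 library it ran from -0.50 without GSI replicate 2, which passed (FDR 0.0397), to -0.22 without GSI replicate 1 (FDR 0.401).

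Further genes that regulate or assist replication were taken from a separate list of 29, of which 28 were in the table and all 28 passed the filter. Of these 28 genes, 14 were lower with GSI (21.9% of all tested genes), 2 were higher (19%) and 12 did not pass. The median log2 fold change of the 28 was -0.34. DESeq2 called 10 of the 28 lower and 2 higher. A test against a fold change of 1.2 called 10 lower and 1 higher. The largest falls were in Pclaf, a clamp-binding protein, and Clspn, which encodes the fork checkpoint mediator claspin. Pclaf measured 20.7 and 19.7 CPM with DMSO and 6.50 and 7.09 CPM with GSI (-1.57 ± 0.10, FDR 1.56e-10). Clspn measured 11.3 and 11.2 CPM with DMSO and 3.97 and 3.85 CPM with GSI (-1.53 ± 0.11, FDR 1.58e-09). These 2 genes passed both thresholds, with GSI levels at 33.7% and 34.7% of DMSO. Dtl, part of the ubiquitin ligase that removes Cdt1 in S phase, measured 5.55 and 7.10 CPM with DMSO and 3.10 and 3.28 CPM with GSI (-1.0 ± 0.14, FDR 1.15e-05). Ticrr, which helps Cdc45 onto the ring, measured 2.51 and 2.70 CPM with DMSO and 1.39 and 1.28 CPM with GSI (-0.97 ± 0.18, FDR 0.000251). The 2 genes that rose were Rnaseh2b, a subunit of the nuclease that removes ribonucleotides from DNA, and Pole4, a small accessory subunit of polymerase epsilon. Rnaseh2b stood at 27.7 and 26.8 CPM with DMSO and 44.4 and 43.2 CPM with GSI (0.68 ± 0.08, FDR 3.99e-07), and Rnaseh2a and Rnaseh2c, its partner subunits, did not pass (0.06 and 0.01). Pole4 stood at 20.6 and 21.1 CPM with DMSO and 25.3 and 27.9 CPM with GSI (0.35 ± 0.08, FDR 0.00196).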

How the data were processed

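The authors sequenced stranded poly(A) libraries, trimmed adapters with Trimmomatic, aligned reads to mm10 with STAR (2.5.0a in the submitters' processing notes, which also list Picard, bcl2fastq, mm9 and mm10) and ran HTSeq for counting. What they deposited are raw counts per gene and run, not normalized. The HTSeq mode and strand setting are not given in the sources used here.

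The 16 columns of counts were summed over the 4 columns of each replicate, taken as sequencing runs, since they differed by no more than sampling noise (chi-square per degree of freedom 1.01 to 1.03). This gave 4 libraries, with totals of 42694655 and 56932059 counts (DMSO) and of 48483661 and 49511733 counts (GSI), in the order of the replicate numbers. All genes were fitted in edgeR 4.0.16 (R 4.3.3) with filterByExpr, TMM factors and the quasi-likelihood test on group, with Benjamini-Hochberg adjustment over 13211 genes. CPM used TMM-adjusted totals, the SE was the log2 fold change divided by the square root of F, and intervals are at 95%. With n = 2, a group's spread rests on a single difference, and the test borrows spread across genes. Exon lengths, positions and overlaps came from GENCODE M21 on GRCm38, which held 98.95% of the gene IDs. Levels per kb divide CPM by the union of a gene's exons. Promoter windows came from RefSeq (GRCm38.p6), with a gene counted once if any of its windows held a motif.

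The members and gene lists were chosen with earlier results of these data known. Every member is named. Values per library are given for the 4 largest changes of each role among those with an FDR under 0.05, for each member higher with GSI, for each member that did not pass and for Mcm8. Of the further genes, up to 4 of the largest changes in each direction with an FDR under 0.05 are given; only 2 rose. Of the further list, Dbf4b was not analysed here, and Pclaf was matched by gene ID. The alternatives were DESeq2 1.42.0, library scaling by RLE or by totals alone, dropping the filter or asking for 10 counts in each library, a block on the replicate number, treating the 16 runs as samples, the likelihood ratio test, glmTreat against a fold change of 1.2, leaving out each library, leaving out genes with exons on the opposite strand, the longest transcript as length and a longer motif. The scripts were tested on simulated data.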

Additional observations from a re-analysis of the deposited data

How the results depend on the processing

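No replication gene that was called changed direction under any alternative, and none passed both thresholds in any. Of those not called, 6 changed sign when 1 library was left out, without passing the test in that direction: the log2 fold change ran from -0.031 to 0.63 for Cdt1, -0.11 to 0.022 for Gins4, -0.048 to 0.067 for Orc3, -0.22 to 0.14 for Orc4, -0.049 to 0.029 for Pcna and -0.34 to 0.12 for Rfc4. RLE factors, no factors, at least 10 counts in every library and the likelihood ratio test kept all 23 calls of replication genes and added none. DESeq2 kept 19 of 23, losing Cdc7, Gins1, Orc1 and Prim2, with 3 helicase activation genes lower. Without a filter, 2 replication genes were higher, Cdt1 and Rfc2, and Gins1 was not called. With the 16 runs as samples, 3896 genes in all, 5 replication genes and 6 further genes were higher. Runs of 1 library are no replicates, so these calls measure sequencing noise as if it were replicate spread. Against a fold change of 1.2, glmTreat called 2446 genes, 1528 lower and 918 higher, and kept 16 of 23 replication calls, with 3 helicase activation genes and 4 fork genes lower and 1 further gene higher. Leaving out genes with exons on the opposite strand removes them from the counts by construction and left 3571 calls, 1908 lower and 1663 higher, with 3 helicase activation genes lower, 0 replication genes higher, and 9 further genes lower and 1 higher. Leaving out 1 library gave 16 to 21 replication genes lower and 1 to 3 higher, and 3 to 5 helicase activation genes lower. A group then has 1 library, whose spread is assumed to be that of the other group. With the replicate number as a block (replicate block), all 23 calls were kept and 4 replication genes were higher, Rfc2 and, newly, Cdt1 (0.29, FDR 0.000225), Gins3 (0.49, FDR 0.0407) and Pola2 (0.18, FDR 0.0304). Samples of one number share only that number: their deviations correlated across genes at 0.15 over all tested genes and 0.25 over those averaging at least 10 CPM, with 2 pairs, and the block is no evidence of pairing. Where not stated, the cause of a change was not tested. Gins3, Cdc7 and Orc1 were among the rarest, with 47 to 137 counts per library, and the part of depth was not tested.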
